A study of Homo sapiens with 12 samples.

Results

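The GATA transcription factors GATA2, GATA3, GATA4 and GATA6 and their FOG cofactors ZFPM1 and ZFPM2 were followed in HA22T and PLC5 cells, both human hepatocellular carcinoma (HCC) lines, with and without knockdown of GALNT1, an enzyme that starts O-glycans on proteins. All probes whose transcript carries the name of one of these genes were taken, which gave 6 of 20503 named genes and 8 of 50599 probes. GATA4 had 3 probes and each of the other genes had 1. Cells of each line were transfected with 10 nM of a non-targeting siRNA (siControl) or of a pool of siRNAs against GALNT1 (siGALNT1), and RNA was taken 48 h later. The 4 groups, HA22T siControl, HA22T siGALNT1, PLC5 siControl and PLC5 siGALNT1, had 3 arrays each, and the labels name no other altered gene. The labels number the arrays of a group but do not say whether they came from separate cultures, so the p-values measure the spread between these arrays, which may be technical.

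GATA factors bind DNA at a short motif, read as GATA, through a pair of zinc fingers. GATA4 and GATA6 act in endoderm, liver and heart, and GATA2 and GATA3 are best known from blood cell precursors and T cells, although each is used in several other tissues. ZFPM1 (FOG1) and ZFPM2 (FOG2) do not take over this motif themselves but bind a zinc finger of GATA factors and bring corepressors, such as CtBP proteins and the NuRD complex, to their target genes.

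In the RefSeq annotation of GRCh38.p14, GATA2 lies at chr3:128479422-128493201, GATA3 at chr10:8045333-8075198, GATA6 at chr18:22169589-22202528 and ZFPM1 at chr16:88451769-88537031. The RefSeq promoter sequences of GATA2 and GATA6 are shown because these were the genes of the group whose level differed between the cell lines. Each sequence is the 250 bases before a transcription start, 5′ to 3′ on the strand of the gene, with every CG dinucleotide in capitals. GATA2 has a pair of annotated starts, and the window shown is that of the upstream one, chr3:128493202-128493451 on the minus strand, and the GATA6 window is chr18:22169339-22169588 on the plus strand.
GATA2: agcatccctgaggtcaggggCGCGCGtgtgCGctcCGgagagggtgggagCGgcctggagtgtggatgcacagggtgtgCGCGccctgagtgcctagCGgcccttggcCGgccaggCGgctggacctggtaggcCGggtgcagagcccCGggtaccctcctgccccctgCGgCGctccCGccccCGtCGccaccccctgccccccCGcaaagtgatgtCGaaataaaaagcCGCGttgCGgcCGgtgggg
GATA6: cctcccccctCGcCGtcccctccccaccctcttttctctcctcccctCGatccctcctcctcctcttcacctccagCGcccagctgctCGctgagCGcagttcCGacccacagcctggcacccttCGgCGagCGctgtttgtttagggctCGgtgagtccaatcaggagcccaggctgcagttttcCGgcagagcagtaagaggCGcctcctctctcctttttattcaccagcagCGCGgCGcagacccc
The GATA2 window shown held 24 CG dinucleotides, a number reached by 23.7% of all promoter windows, that of its other start (chr3:128488531-128488780) held 18, reached by 36.8%, and the GATA6 window held 16, reached by 41.0%. The median over all windows was 11. The GATA motif was searched in the form AGATAA, the form AGATAG, the form TGATAA and the form TGATAG, on both strands, in the 300 bases from 250 before to 50 after each start. None of the 10 windows of GATA2, GATA3, GATA6 and ZFPM1 held one of these 4 forms (0 of 10), against 25.0% of all 35116 windows. GATA3 alone had 6 of the 10 windows, and by gene the share was 29.1% of all genes with a window. GATA4 and ZFPM2 are not covered. The search says only that these letters are not in the 10 windows.

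Levels are log2 values of the background-subtracted intensity relative to the 75th percentile of the same array, so that 0 is the level of that percentile. Of 58717 spots on an array, 36679 to 48873 exceeded background clearly by the flags of the software, which is called well above background here. No spot was saturated (0 on every array), and replicate arrays correlated at 0.968 to 0.988. GALNT1 had 2 probes. In HA22T the brighter, A_33_P3210218, was different by -5.10 on the log2 scale with siGALNT1 (SE 0.611, limma adjusted p = 0.0708) and did not pass, and A_23_P306105 fell by 4.75 (SE 0.488, limma adjusted p = 0.0305), with the siGALNT1 spots well above background on 2 of 3 and 1 of 3 arrays. In PLC5 the differences were -3.72 and -3.03 (limma adjusted p = 1 for both), and the siRNA groups did not overlap by either probe in either line. Of 10 hepatocyte markers, 9 were higher in PLC5 than in HA22T with either siRNA, and their summed level relative to the 75th percentile was 2.35 to 2.92 on the HA22T arrays and 119 to 223 on the PLC5 arrays. In HA22T with siControl, 5 of these 10 markers, albumin among them, were well above background on 3 of 3 arrays. Of the 10, 0 were at background on every array, and transferrin and transthyretin were well above it on 1 of 3 each. The part of this difference in state between the lines in the values of the GATA genes was not tested. The summed level of the 5 blood markers with a probe was 24.4 to 66.0 in HA22T and 22.2 to 47.2 in PLC5, that of the 5 endothelial markers 32.1 to 47.8 and 30.8 to 38.7, and that of the 6 fibroblast or stellate markers 0.785 to 1.46 and 0.113 to 0.161. Most of the blood sum came from PTPRC, a leukocyte protein (mean log2 level with siControl 5.05 in HA22T and 5.10 in PLC5). Most of the endothelial sum came from CLEC4M, a lectin of liver endothelium (5.47 and 4.95). LUM held most of the fibroblast or stellate sum in HA22T (0.10 with siControl). The probes of PTPRC and CLEC4M were well above background on all 12 arrays. The endothelial marker PECAM1 had a mean of -3.16 in HA22T siControl and 2.25 in PLC5 siControl, so the sums do not stand for each marker. The part of these signals in the values of the GATA genes was not tested.

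GATA2, GATA4 and GATA6 were well above background on all 12 arrays by their brightest probe, and ZFPM1 on the 11 arrays with a usable spot. GATA3 was well above background on 8 arrays and ZFPM2 on 4, so both were dim. For GATA4 the brightest probe stands for the gene in counts, and levels of different probes were not compared with each other, since probes differ in how strongly they bind.

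GATA2, a zinc finger factor of blood stem cells and endothelium, had log2 levels of 3.51, 4.15 and 4.02 in HA22T siControl and of 4.07, 4.59 and 4.26 in HA22T siGALNT1. In PLC5 they were 2.42, 2.76 and 2.80 with siControl and 2.94, 2.06 and 3.28 with siGALNT1. All 6 HA22T arrays were above all 6 PLC5 arrays, while the siRNA groups within a line overlapped. Separation of the lines was common over all probes with 3 values in each group. The lines did not overlap for 42.3% of them with siControl and for 39.9% with siGALNT1. The share over 6 against 6 arrays is not given. The means were 3.89 ± 0.34 and 4.31 ± 0.26 in HA22T and 2.66 ± 0.21 and 2.76 ± 0.63 in PLC5 (SD, n = 3), and the PLC5 siGALNT1 arrays were the most spread out of these 4 groups.

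GATA6, a factor of early endoderm that also acts in liver and gut, had log2 levels of -1.66, -1.85 and -1.79 in HA22T siControl and of -1.96, -1.34 and -1.75 in HA22T siGALNT1. In PLC5 they were -3.30, -3.61 and -3.43 with siControl and -2.59, -3.10 and -3.47 with siGALNT1. As for GATA2, every HA22T array was above every PLC5 array, and the siRNA groups overlapped within each line. The means were -1.77 ± 0.10 and -1.68 ± 0.32 in HA22T and -3.45 ± 0.16 and -3.05 ± 0.45 in PLC5 (SD, n = 3).

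**Figure D1:**
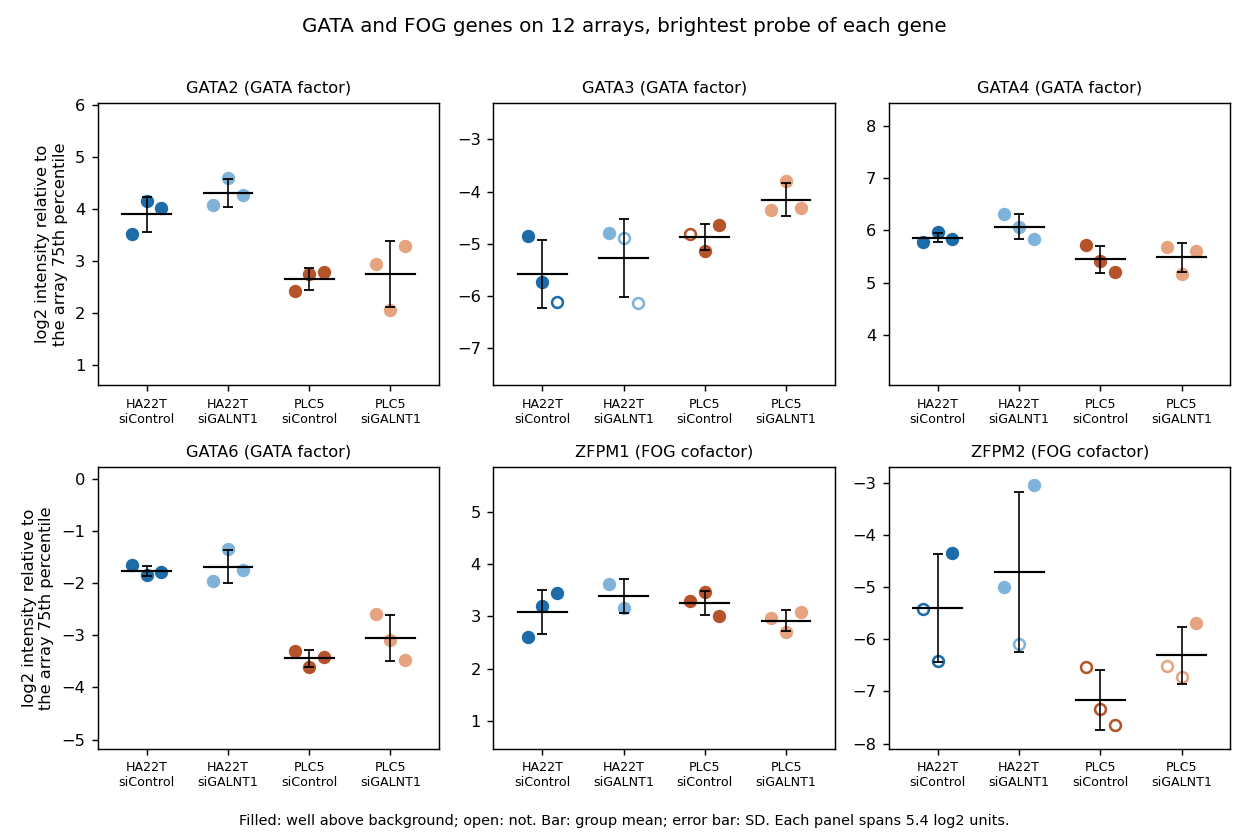
Log2 intensity relative to the 75th percentile of the array (vertical axis) for the brightest probe of each of the 6 genes, by group (horizontal axis). Each point is an array, filled where the spot was well above background, bars are group means and error bars SD, and the GATA2 and GATA6 points of HA22T all lie above those of PLC5.

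GATA4, a factor of heart, liver sinusoids and early liver whose gene lies on chromosome 8, was measured by 3 probes. The brightest, A_33_P3360363, had log2 levels of 5.79, 5.96 and 5.85 in HA22T siControl, of 6.31, 6.07 and 5.84 in HA22T siGALNT1, of 5.72, 5.41 and 5.20 in PLC5 siControl and of 5.68, 5.16 and 5.61 in PLC5 siGALNT1. By this probe all HA22T arrays were above all PLC5 arrays, the lowest HA22T level of 5.79 lying close to the highest PLC5 level of 5.72. The means were 5.87 ± 0.09 and 6.07 ± 0.24 in HA22T and 5.44 ± 0.26 and 5.48 ± 0.28 in PLC5 (SD, n = 3).

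The other GATA4 probes ordered the lines the other way. A_33_P3293456 had log2 levels of 0.47, 0.37 and 0.25 in HA22T siControl and of 1.17, 1.01 and 0.89 in PLC5 siControl, so the siControl groups did not overlap and PLC5 was above. With siGALNT1 its levels were 1.04, 0.06 and 0.71 in HA22T and 1.098, 1.18 and 0.80 in PLC5, and these groups overlapped. A_23_P384761 had a usable spot on 1 array of each HA22T group, at -0.11 with siControl and 0.63 with siGALNT1, because the other 4 HA22T spots were flagged as non-uniform. Its usable levels were 1.83, 2.17 and 1.92 in PLC5 siControl and 1.60 and 1.79 in PLC5 siGALNT1, all above both HA22T arrays. With the flagged spots kept, its means were 0.64 ± 0.64 and 0.65 ± 0.24 in HA22T and 1.97 ± 0.18 and 1.67 ± 0.10 in PLC5 (SD, n = 3), and the lines still did not overlap.

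**Figure D2:**
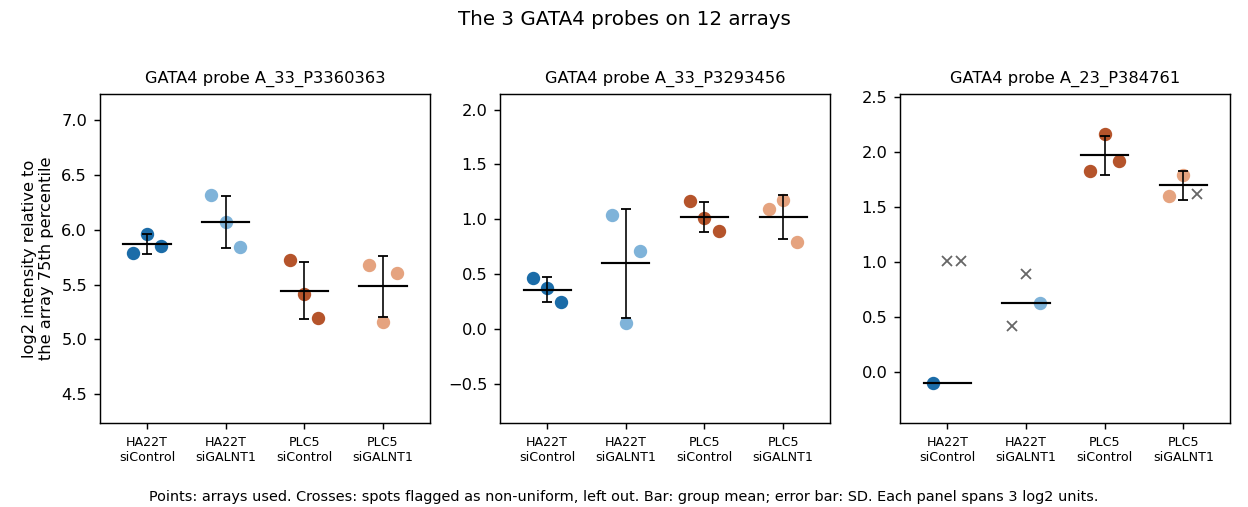
Log2 intensity relative to the 75th percentile of the array (vertical axis) for the 3 GATA4 probes, by group (horizontal axis). Points are arrays, crosses are spots flagged as non-uniform and left out, bars are group means and error bars SD. The probe A_33_P3360363 lies higher in HA22T, whereas the points of A_23_P384761 lie higher in PLC5.

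GATA3, the main T helper 2 factor and a marker of several epithelia, had log2 levels of -4.85, -5.74 and -6.12 in HA22T siControl and of -4.79, -4.89 and -6.13 in HA22T siGALNT1. In PLC5 they were -4.81, -5.14 and -4.65 with siControl and -4.36, -3.80 and -4.31 with siGALNT1. The 3 PLC5 siGALNT1 arrays were above the other 9 arrays, and this was the only group in which GATA3 was well above background on 3 of 3 arrays, against 2 of 3 in both siControl groups and 1 of 3 in HA22T siGALNT1. The means were -5.57 ± 0.65 and -5.27 ± 0.75 in HA22T and -4.87 ± 0.25 and -4.16 ± 0.31 in PLC5 (SD, n = 3).

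Of the cofactors, ZFPM1, which works with GATA1 in red cell and platelet precursors, had log2 levels of 2.61, 3.20 and 3.45 in HA22T siControl, of 3.62 and 3.17 in HA22T siGALNT1, where the spot of replicate 3 was flagged and left out, of 3.30, 3.47 and 3.01 in PLC5 siControl and of 2.97, 2.71 and 3.09 in PLC5 siGALNT1. The groups overlapped within each line and between the siControl groups, while both usable HA22T siGALNT1 arrays were above the PLC5 siGALNT1 arrays. With the flagged spot kept, at 3.05, these groups overlapped too. The means were 3.09 ± 0.43 (SD, n = 3), 3.39 ± 0.32 (SD, n = 2), 3.26 ± 0.23 (SD, n = 3) and 2.92 ± 0.19 (SD, n = 3). ZFPM2, a partner of GATA4 in heart and gonad that is also encoded on chromosome 8, had log2 levels of -5.42, -6.43 and -4.35 in HA22T siControl, of -4.995, -6.09 and -3.05 in HA22T siGALNT1, of -6.53, -7.34 and -7.65 in PLC5 siControl and of -6.51, -6.72 and -5.70 in PLC5 siGALNT1. It was well above background on 1, 2, 0 and 1 of 3 arrays of these groups, and its SD reached 1.54 in HA22T siGALNT1.

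Whether knockdown of GALNT1 changes these genes is the comparison for which the arrays were made, and no member passed the test in either line. In HA22T all 6 genes had enough signal to be tested, and 0 had an adjusted p below 0.05 in limma, against 0% of 16967 genes and 0.00275% of 36327 probes. In PLC5 5 of the 6 genes were tested, ZFPM2 being too dim, and 0 were called, against 0% of 17316 genes and 0% of 38070 probes. By the criterion of the study, in which the level changes 1.5-fold or more with p below 0.05 before adjustment, 0 members were called in either line with the p of limma, against 2.87% of the probes in HA22T and 1.29% in PLC5. With the p of the methods' t-test 0 of 6 genes met this criterion in HA22T, against 2.03% of the probes, and 1 of 5 in PLC5, GATA3, against 0.820%, and 0 passed after Benjamini-Hochberg adjustment. Without the fold change, 2.99% and 1.33% of the probes passed limma before adjustment, and again 0 members did.

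In HA22T the 6 log2 differences, siGALNT1 minus siControl, were 0.41 for GATA2, 0.31 for GATA3, 0.21 for GATA4, 0.08 for GATA6, 0.31 for ZFPM1 and 0.69 for ZFPM2, each with a limma adjusted p of 1. The siRNA groups overlapped for each gene, and 0 of the 5 genes with 3 values in each group were free of overlap, against 8.83% of all probes with 3 values in each group. The median difference was 0.31, against -0.10 over all 16967 genes tested. The 95% confidence interval of GATA2 ran from -0.32 to 1.15 and that of GATA6 from -0.53 to 0.69, so changes of this size could not be detected. GATA2 and ZFPM2 were higher with siGALNT1 in 3 of 3 pairs of arrays with the same number, and their groups overlapped (exact permutation p = 0.2 and 0.6, two-sided, where 3 against 3 arrays cannot go below 0.1).

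In PLC5 the log2 differences were 0.10 for GATA2, 0.71 for GATA3, 0.04 for GATA4, 0.39 for GATA6, -0.33 for ZFPM1 and 0.86 for ZFPM2, the last not tested. GATA3 was the only gene of the group tested whose arrays did not overlap between the siRNAs (exact permutation p = 0.1, two-sided), against 4.11% of all probes with 3 values in each group. Its difference had a 95% confidence interval of -0.20 to 1.63 and a limma adjusted p of 1, and with normexp background correction it was 0.41. ZFPM2 was well above background on 1 PLC5 siGALNT1 array and on 0 of the siControl arrays, and no fold can be given for it. The GATA4 probe A_23_P384761, with 2 usable siGALNT1 spots, was -0.27 and also did not overlap (limma adjusted p = 1).

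The effect of siGALNT1 was compared between the lines with an interaction term, and 0 of the 6 genes differed, against 0% of 17893 genes and 0% of 39100 probes, of which 2.43% had an unadjusted p below 0.05. The difference of the effects, PLC5 minus HA22T, was -0.31 for GATA2 (SE 0.473), 0.41 for GATA3 (SE 0.59), -0.17 for GATA4 (SE 0.353), 0.31 for GATA6 (SE 0.393), -0.64 for ZFPM1 (SE 0.433) and 0.18 for ZFPM2 (SE 1.02). Each had a limma adjusted p between 0.988 and 0.993. The 95% confidence interval of ZFPM1 ran from -1.61 to 0.32.

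**Figure D3:**
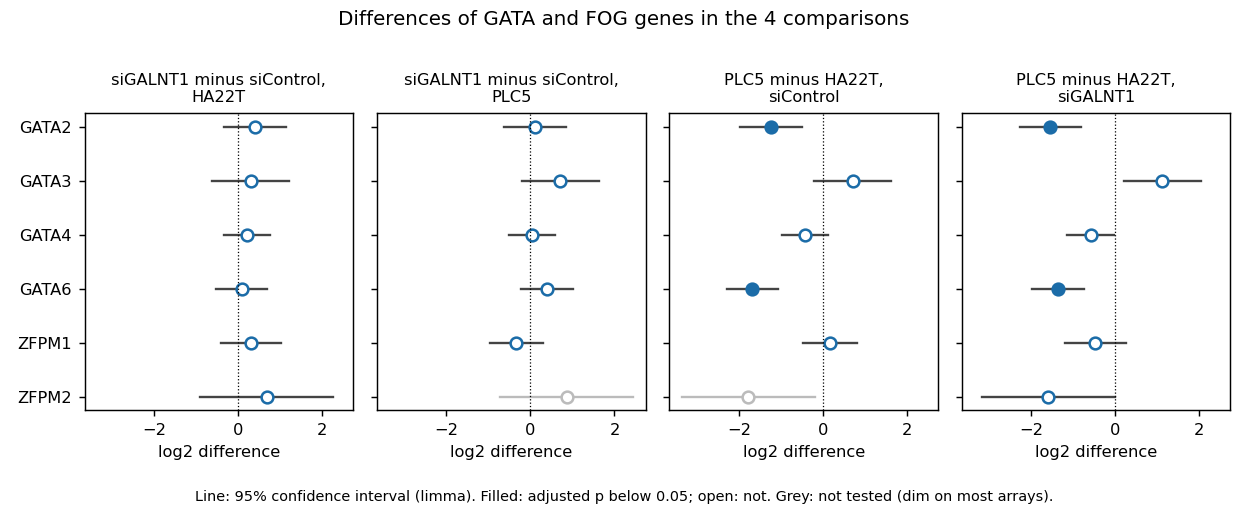
Log2 differences of the 6 genes (horizontal axis) in the 4 comparisons, from the brightest probe of each gene. Points are differences of group means, lines are 95% confidence intervals from limma, filled points have an adjusted p below 0.05 and grey ones were too dim to be tested. GATA2 and GATA6 are filled in both comparisons of the lines and in neither comparison of the siRNAs.

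The lines differed in 2 of the 6 genes, GATA2 and GATA6, both lower in PLC5. With siControl, 5 genes were tested, 2 were lower in PLC5 and 0 higher, against 14.2% of 17417 genes lower, 12.4% higher and 26.6% in either direction. With siGALNT1, on other arrays, 6 genes were tested, and the same 2, GATA2 and GATA6, were lower and 0 higher, against 11.6% of 17201 genes lower, 15.0% higher and 26.6% in either direction. The share of members called was thus near that of all genes.

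GATA6 was 1.68 lower in PLC5 on the log2 scale with siControl, the difference being -1.68 (SE 0.278, 95% confidence interval -2.29 to -1.07, limma adjusted p = 0.00108), which is a level 3.20-fold higher in HA22T. With siGALNT1 the difference was -1.37 (SE 0.278, 95% confidence interval -1.98 to -0.76, limma adjusted p = 0.00426). The arrays lay on 2 slides, the 8 arrays of slide 1 holding all HA22T arrays and replicate 1 of both PLC5 groups and the 4 arrays of slide 2 the rest of PLC5. With the slide as a block the differences were -1.37 (limma adjusted p = 0.00943) and -1.06 (limma adjusted p = 0.0322). Within slide 1 they were -1.53 and -0.90, with limma adjusted p-values of 0.059 and 0.215 and 1 PLC5 array per group. The methods' t-test left the siControl call (Benjamini-Hochberg adjusted p = 0.00546) and ended that with siGALNT1 (0.0745). Over the 15 settings with limma, those of the slide among them, the adjusted p was 0.000439 to 0.059 with siControl and 0.00207 to 0.215 with siGALNT1.

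GATA2 was lower in PLC5 by a log2 difference of -1.24 with siControl (SE 0.334, 95% confidence interval -1.97 to -0.50, limma adjusted p = 0.0205), a level 2.36-fold higher in HA22T. With siGALNT1 the difference was -1.55 (SE 0.334, 95% confidence interval -2.28 to -0.81, limma adjusted p = 0.00617). With the slide as a block the siControl difference was -1.27 and no longer passed (limma adjusted p = 0.0628), while that with siGALNT1 was -1.58 (limma adjusted p = 0.0242). Within slide 1 the differences were -1.48 (limma adjusted p = 0.0851) and -1.37 (limma adjusted p = 0.1). Leaving out a single array also ended the siControl call, with limma adjusted p-values of 0.0732 without HA22T siControl replicate 2, 0.067 without HA22T siControl replicate 3 and 0.0668 without PLC5 siControl replicate 1. The methods' t-test gave Benjamini-Hochberg adjusted p-values of 0.0384 with siControl and 0.0899 with siGALNT1, so the latter call was lost with it. Over the 15 settings with limma the adjusted p was 0.00549 to 0.0851 with siControl and 0.00105 to 0.1 with siGALNT1.

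GATA4 did not pass by its brightest probe, the differences between the lines being -0.42 with siControl (SE 0.25, limma adjusted p = 0.279) and -0.59 with siGALNT1 (SE 0.25, limma adjusted p = 0.114), although the groups did not overlap. The lines did not overlap in 3 of 5 genes tested with siControl, against 42.3% of all probes with 3 values in each group, and in 4 of the 5 genes with 3 values in each group with siGALNT1, against 39.9%. With the slide as a block the differences were -0.19 and -0.35. The probe A_33_P3293456 had differences of 0.66 (limma adjusted p = 0.115) and 0.42 (limma adjusted p = 0.299), of which the first passed by the methods' t-test (Benjamini-Hochberg adjusted p = 0.0263). The probe A_23_P384761 passed with siControl at 2.08 (limma adjusted p = 0.0115), a value that rests on 1 HA22T array. It was 1.33 (limma adjusted p = 0.0103) with the flagged spots kept. With siGALNT1 the difference of this probe was 1.07, again from 1 HA22T array, and did not pass. That siGALNT1 difference was 1.02 (limma adjusted p = 0.0376) with the flagged spots kept and 1.34 with normexp background correction, and it passed in both. The 3 probes of GATA4 thus disagreed on which line had the higher level.

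GATA3 went the other way from GATA2 and GATA6 in value, with differences of 0.71 with siControl (limma adjusted p = 0.274) and 1.11 with siGALNT1 (limma adjusted p = 0.078). The latter groups did not overlap. With normexp background correction the siControl difference was 0.15 and the siGALNT1 difference 0.30. ZFPM1 had differences of 0.17 (limma adjusted p = 0.732) and -0.47 (limma adjusted p = 0.328). ZFPM2 was well above background on 1 of 3 HA22T siControl arrays and on 0 of 3 in PLC5, with measured means of -5.40 and -7.17, and no fold is given for it. With siGALNT1 its difference was -1.60 (SE 0.723, limma adjusted p = 0.138), with normexp it was -0.75, and without HA22T siGALNT1 replicate 2 it was -2.29 (limma adjusted p = 0.0466).

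The other genes of the pathway were taken as 3 lists, of which that of partners and that of targets share TAL1. No gene of the lists passed the test between the siRNAs in either line. This was 0 of 49 genes tested in HA22T, against 0% of all 16967 genes, and 0 of 52 in PLC5, against 0% of all 17316 genes. Of 14 corepressor partners of FOG proteins, 13 had a probe and were tested, and with siControl 0 were higher and 5 lower in PLC5, against 12.4% and 14.2% of all genes, with a median difference of -0.71 against -0.10 over all genes tested. With siGALNT1 0 were higher and 3 lower, against 15.0% and 11.6% of all genes, with a median of -0.33 against -0.07. With the slide as a block the counts of 5 and 3 were 2 and 1, and within slide 1 they were 1 and 0. By the methods' t-test they were 5 and 1. The share of all genes called under such alternatives is not given, for this list or for those below. A fall in these counts can therefore not be read as particular to a list.

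The corepressor genes with the largest differences with siControl were GATAD2B, a NuRD subunit (log2 difference -1.99, SE 0.399), CTBP1, a C-terminal binding protein (-1.38, SE 0.269), MTA1, another NuRD subunit (-1.14, SE 0.261), and HDAC1, a histone deacetylase (-1.06, SE 0.267). GATAD2B and CTBP1 still passed with the slide as a block, whereas MTA1 and HDAC1 did not (limma adjusted p = 0.0619 and 0.0988). With siGALNT1 GATAD2B (-1.35), MTA1 (-1.01) and CTBP1 (-0.998) passed, and with the slide as a block only GATAD2B did (limma adjusted p = 0.0137). Without HA22T siGALNT1 replicate 2 the count of 3 went to 0, and without HA22T siGALNT1 replicate 3 or PLC5 siGALNT1 replicate 3 to 1. Without HA22T siControl replicate 3, PLC5 siControl replicate 2 or PLC5 siControl replicate 3 the siControl count of 5 went to 3.

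**Figure D4:**
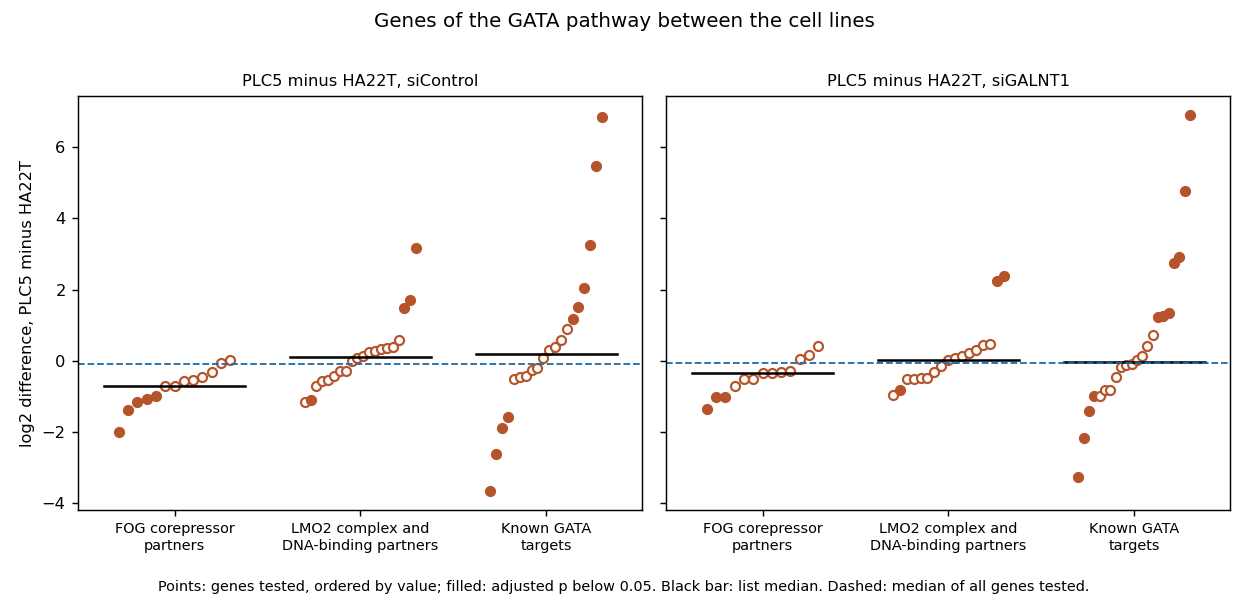
Log2 differences between the lines, PLC5 minus HA22T (vertical axis), for the genes of 3 lists (horizontal axis) with siControl and with siGALNT1. Points are genes, filled where the adjusted p was below 0.05, black bars are list medians and the dashed line is the median of all genes tested. The corepressor list has filled points below 0 and none above, and the target list has them on both sides.

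Among 22 genes of the LMO2 complex and other DNA-binding partners of GATA factors, 20 were tested with siControl, 3 were higher and 1 lower in PLC5, against 12.4% and 14.2% of all genes, and the median was 0.12 against -0.10. The T-box factor TBX5 was not well above background on any HA22T siControl array (measured means -4.22 in PLC5 and -7.39 in HA22T, limma adjusted p = 0.00241). For a floored fold, the lowest level well above background on each array was put in place of a lower one. This gave a level 2.51-fold higher in PLC5, which is not a strict lower bound, since a spot at background can lie above that level. With normexp background correction the log2 difference of TBX5 was 0.73, less than the floored fold, and did not pass (limma adjusted p = 0.132). NR5A2, a nuclear receptor of liver and pancreas, was 1.72 higher on the log2 scale (SE 0.337) and EP300, a histone acetyltransferase, 1.49 higher (SE 0.35), while SMAD1, a transducer of BMP signals, was lower by a log2 difference of -1.11 (SE 0.254). EP300 did not pass with the slide as a block (limma adjusted p = 0.0565) and was 0.93 with normexp. With siGALNT1 2 of 17 were higher, NR5A2 by 2.38 and EP300 by 2.25, and 1 was lower, SMAD1 at -0.82, against 15.0% and 11.6% of all genes, with a median of 0.02 against -0.07. EP300 was well above background on 1 of 3 HA22T siGALNT1 arrays, and its difference was 1.23 with normexp. The SMAD1 call with siGALNT1 was lost with 7 of the 12 arrays left out singly (limma adjusted p up to 0.108), namely HA22T siControl replicate 3 and each of the siGALNT1 arrays of both lines, and also with normexp (0.0618) and within slide 1 (0.209). By the methods' t-test 2 genes of the list passed with siControl and 3 with siGALNT1, and within slide 1 3 and 1.

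Of 28 genes known as GATA factor targets, 20 were tested with siControl, 6 were higher and 4 lower in PLC5, against 12.4% and 14.2% of all genes, and the median was 0.18 against -0.10. The largest differences were those of FOXA2, LGR5, EDN1 and HNF4A. FOXA2, a liver and endoderm factor, was higher in PLC5 (log2 difference 6.85, SE 0.443, limma adjusted p = 1.19e-06). LGR5, a stem cell receptor, was 9.13-fold higher in PLC5 by the same kind of floored fold (measured means -2.36 and -7.84, limma adjusted p = 3.92e-05). EDN1, which encodes endothelin, was lower (-3.65, SE 0.414), and HNF4A, the hepatocyte nuclear receptor, was higher (3.24, SE 0.427). FOXA2 was well above background on 1 of 3 HA22T siControl arrays. With siGALNT1 22 targets were tested, 7 were higher and 4 lower, against 15.0% and 11.6% of all genes, with a median of -0.02 against -0.07. FOXA2 (6.90), LGR5 (floored fold 6.26), EDN1 (-3.25) and HNF4A (2.92) again led the list. With normexp the LGR5 differences were 2.57 and 2.40 on the log2 scale, which is less than both floored folds, and still passed. By the methods' t-test 9 targets passed with siControl and 5 with siGALNT1, and within slide 1 6 and 5. Targets were thus called in both directions between the lines. HNF4A is also among the hepatocyte markers above.

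The genes whose pattern over the 12 arrays was most like that of a member were named by the root mean square difference of the levels after the mean of each gene was subtracted, among 11849 genes well above background on all 12 arrays. For GATA2 these were PARP10 at 0.214 and TRAIP at 0.238, against an SD of 0.817 for GATA2 itself. For GATA6 they were BUB1 at 0.118 and LRRC14 at 0.142, against an SD of 0.846, and for GATA4 KRTAP10-10 at 0.073 and SLC4A1 at 0.0813, against an SD of 0.338. These are descriptions over 12 arrays that share the cell line, the slide and the scaling.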

How the data were processed

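Total RNA of HA22T and PLC5 cells was labeled as cDNA and hybridized to 12 single-colour arrays, 3 per group. The authors scanned the arrays and extracted the spots with Agilent Feature Extraction 10.5.1.1, per the labels. The deposited intensity of each spot is the processed signal, after subtraction of background by the software. A further deposited table holds log2 values from the authors, which correlated at 1 with the values computed here and served as an alternative.

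Control spots and spots flagged as non-uniform, 489 to 3633 per array, were left out. The log2 intensity was set relative to the 75th percentile of all spots of the array that are not controls, and spots of a probe were averaged. Probes were named through their RefSeq transcripts in a table of GRCh38.p14, and 28174 of 50599 matched. The design of the arrays used an older build, so that positions given are those of the RefSeq genes only. All 4 groups entered the same linear model (lmFit, then eBayes; limma 3.58.1, R 4.3.3) without covariates, and p-values were adjusted (Benjamini-Hochberg) over the probes well above background on at least 3 arrays of the groups compared, with 0.05 as the threshold. The number of arrays limits the precision. Which of its several tests the study used for the arrays is not stated, and its Student's test is called the methods' t-test here.

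The members and the lists of partners and targets were chosen with earlier results of these data known. Named genes were all members, GALNT1, up to 4 genes with the largest difference among those passing in each list and comparison, and the 2 genes most like each member measured on all arrays. Marker genes were named as checks of the cell lines. Where all arrays of a group were at background, a floored fold was given. Same-numbered siControl and siGALNT1 arrays of HA22T deviated together (correlations 0.555, 0.402 and 0.427), which comes from the values, as the labels give only numbers. Alternatives were quantile normalization, normexp background correction (offset 50), the deposited table, median scaling, other filters and flags, the slide, the replicate number, the groups compared alone, a trended prior, the methods' t-test, the mean over probes, and each array left out. A 75th percentile over spots not flagged was added after the data were seen.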

Additional observations from a re-analysis of the deposited data

How the results depend on the processing

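The counts of member genes with an adjusted p below 0.05 stayed at 0 for both siRNA comparisons and for the interaction under every alternative run. In the main setting 1 of 36327 probes passed in HA22T, 0 of 38070 in PLC5 and 0 of 39100 for the interaction. The lowered GALNT1 itself did not pass in PLC5, so these counts of 0 cannot show that the members were unchanged. Between the lines with siControl the count of 2 went to 1 with the slide as a block and to 0 within the slide that holds both lines, and it was 1 to 2 when a single array was left out. With siGALNT1 the count of 2 went to 0 within that slide and to 0 with the methods' t-test, and it was 2 to 3 when a single array was left out. When a single array was left out, 6138 to 8700 of all probes passed with siControl, against 8368 in the main setting. For siGALNT1 they were 5979 to 8695, against 8407. The share of all genes called under the other alternatives is not given. A change in the member counts can therefore not be read as particular to the members. With the replicate number as a block (pairing), no member changed its call, and the counts between the lines stayed at 2 and 2. The count over all probes in HA22T went from 1 to 0. The HA22T differences of GATA2 and GATA6, 0.41 and 0.08, cannot change under this block, since each number holds 1 array of each group. In PLC5 the arrays of replicate 1, the only PLC5 arrays on slide 1, deviated together (correlation 0.701). Those of replicates 2 and 3 had correlations of -0.0443 and 0.181, and the block gave 0 calls in PLC5.

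Small differences changed sign. Within the slide that holds both lines, the PLC5 siRNA difference was -0.0437 for GATA4 and -0.0702 for its probe A_33_P3293456, and the interaction was -0.66 for ZFPM2 and 0.11 for GATA2. Within the slide that holds PLC5 alone, the siRNA difference of GATA2 was -0.11. The GATA4 interaction was 0.0001917 with normexp, and its difference between the lines with siControl 0.0586 as a mean over the probes usable on each array, of which HA22T siControl replicates 2 and 3 lack A_23_P384761. When a single array was left out, the siRNA difference ranged from -0.0894 to 0.222 for GATA6 and from -0.144 to 1.37 for ZFPM2 in HA22T, and in PLC5 from -0.16 to 0.45 for GATA2, from -0.0850 to 0.198 for GATA4 and from -0.0767 to 0.115 for its probe A_33_P3293456. The interaction ranged from -0.572 to 0.0425 for GATA2, from -0.0263 to 0.68 for GATA3 and from -0.51 to 1.01 for ZFPM2, and the difference of ZFPM1 between the lines with siControl from -0.0642 to 0.352. None of these values was called. The causes were not tested. Signal over background limits GATA3 and ZFPM2.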
